A study of Mus musculus with 5375 samples.

Results

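Alveolar capillary endothelial cells (aCap, also called aerocytes) of the mouse lung were followed from rest to the first days after tumour cells reached the lung. They were chosen with a score D over 12 genes. For each cell, D is the mean z-score of Car4, Ednrb, Fibin, Tbx2, Kdr and Emp2 minus that of Gpihbp1, Plvap, Aplnr, Cd93, Ptprb and Tek, with z taken over all cells of the capillary table. Cells with D above 0.75 were members, which gave 598 aCap cells of 2293 capillary cells (26.1%), out of 3455 endothelial cells (ECs) in the unfiltered tables.

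The alveolar capillary bed is a mosaic of aCap cells, which are large, thin and spread over the gas-exchange surface, and general capillary cells (gCap), which are smaller, carry the machinery for vessel tone and antigen presentation and act as progenitors for both types after injury. aCap cells receive VEGF signals from type 1 alveolar epithelial cells and are marked by carbonic anhydrase 4 (Car4) and endothelin receptor B (Ednrb). Circulating tumour cells that lodge in the lung arrest in this capillary bed first, so both cell types are among the first host cells they meet.

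The ECs came from female BALB/c wild-type mice. Mice at day 0 had received no tumour cells (4 animals), and mice at day 1.5 and at day 3.5 (3 animals each) had received 4T1-GFP cells, a BALB/c mammary carcinoma line carrying green fluorescent protein and a CellTrace proliferation dye, through the tail vein in a pair of injections. Before being killed at day 1.5, animals also received an antibody to H-2Kd intravenously to mark cells inside vessels. ECs were sorted from whole lung as CD31+ CD45- PDPN- LYVE1- TER119-, which takes out leukocytes, epithelium, lymphatics and red cells, and were sequenced 1 cell per well by a modified SMART-Seq2 protocol without molecular identifiers. The methods give an age of 8 to 12 weeks for mice of the whole study.

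Cells were sorted on 2 sort days. Day 0 replicates 1 and 2 shared the sort day of the day 1.5 animals and day 0 replicates 3 and 4 that of the day 3.5 animals, so each later day can be set against day 0 within a sort day, whereas day 3.5 and day 1.5 differ in both day and sort day. Per animal, 35 to 88 aCap cells gave 20.2 to 33.7 M reads (M, 1000000). The median aCap cell had 0.277 to 0.519 M reads and 2154.5 to 3429 detected genes, with the highest gene numbers in day 1.5 replicate 3 (3040) and day 3.5 replicates 2 and 3 (3429 and 3149). No well name occurred in more than 1 library, and no doublet caller was run.

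The label fitted the data. A read of Pecam1 was found in 99.3% of aCap cells, of the tight-junction gene Cldn5 in 99.5%, of Egfl7 in 98.7%, of VE-cadherin (Cdh5) in 91.1%, of Tie1 in 70.9% and of the transcription factor Erg in 18.4%. The leukocyte gene Ptprc and the lymphatic regulator Prox1 each had a read in 0.167%, and Pdgfrb of mural cells in 0 of 598 cells, which allows a share of up to 0.502% (counting error only). The authors had removed cells from this table by Ptprc, Pdgfrb and other immune and mural genes, so their near absence follows from that filter. Among markers of alveolar epithelium the summed level ran from 1530 to 3200 CPM (reads per 1000000 reads of the animal's summed aCap cells) in each animal. Nearly all of it was Hopx, which lung type 1 epithelium and, in these data, aCap cells carry, whereas Sftpc reached 180 CPM at most and the epithelial gene Epcam was at 0 on all days. Markers of erythroid cells and platelets summed to 9450 CPM in day 0 replicate 4 and to at most 546 CPM in the other 9 animals.

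D had a low point between the groups rather than an empty gap. The median D was 1.97 in aCap cells and -0.712 in the other capillary cells, and the highest was 3.61. Between D of 0.5 and 0.75 there were 33 cells, and between 0.75 and 1 there were 35. The members nearest the threshold had D of 0.7602 and 0.7639, and the nearest cells outside had 0.7476 and 0.7443. A second score, made of 9 aCap and 8 gCap genes that the study lists and the rule does not use, exceeded 0.75 in 510 cells. Of those, 487 were aCap cells, which is 95.5% of the cells picked by the second score and 81.4% of the aCap cells. The second score was above 0 in 583 of the 598 aCap cells.

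aCap cells varied in how many of the 12 genes they carried. Reads of at least 4 of the 6 alveolar-side genes were present in 566 cells (94.6%), with a median of 5. The surface enzyme Car4 was found in 99.7% of aCap cells against 74.5% of the other capillary cells, the membrane protein Emp2 in 99.2% against 59.9%, and VEGF receptor 2 (Kdr) in 92.5% against 51.4%. Ednrb separated the classes more sharply, with 89.6% against 17.3%, as did the transcription factor Tbx2 (71.7% against 10.1%) and Fibin (43% against 3.48%). Of the general-side genes, Gpihbp1, which anchors lipoprotein lipase to the capillary wall, still had a read in 86.5% of aCap cells, the vesicle diaphragm gene Plvap in 50.7% and the apelin receptor Aplnr in 10.2%. The median aCap cell had reads of 3 of the 6 general-side genes. These percentages follow from the rule and were not tested.

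**Figure D1:**
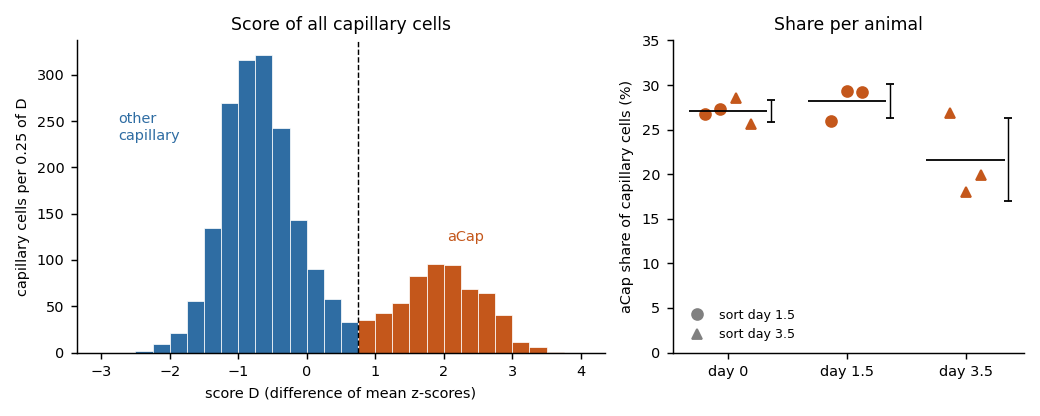
Left, histogram of the score D over the 2293 capillary cells (x axis, difference of mean z-scores; y axis, cells per 0.25 of D), with the threshold of 0.75 dashed. Right, aCap share of capillary cells in percent per animal by day, with circles for sort day 1.5, triangles for sort day 3.5, lines for means and error bars for SD; 2 of the 3 day 3.5 animals lie below all others, at 18.04 and 19.9%.

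The aCap share of capillary cells was 26.8, 27.4, 28.6 and 25.6% in the 4 day 0 animals, 25.96, 29.3 and 29.2% at day 1.5, and 26.9, 18.04 and 19.9% at day 3.5. The means were 27.1 ± 1.24% (SD, n = 4), 28.2 ± 1.91% (n = 3) and 21.6 ± 4.67% (n = 3). Day 3.5 replicates 2 and 3 were the lowest of all 10 animals, and replicate 1 lay among the day 0 animals. The share depends on which wells passed the filters and on genes of the rule, so it was described without a test. The median D of aCap cells was 2.03 to 2.24 in the day 0 animals and lower in every later animal, at 1.73 to 1.97 on day 1.5 and 1.70 to 1.95 on day 3.5.

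At rest, aCap cells differed from the other capillary cells of the same animal in many genes outside the rule. Levels are mean log10 values, the mean over cells of log10(1 + 10000 × estimated count / mean of the detected housekeeping genes), and a difference in them reflects both how many cells had reads and how many reads they had. The detection minimum was reads in at least 25% of the cells of the class where a gene was higher. A gene could therefore enter through 1 class alone, which shapes the shares that follow. Among 3304 such genes outside the rule, 1237 (37.4%) were higher in aCap cells in all 4 animals and 449 (13.6%) lower. By at least 0.5 in all 4 animals, 430 genes differed, 66 of them lower in aCap cells. Because the cells were chosen by this contrast, these are descriptions without a test. aCap cells also had more reads per cell in all 4 animals and more genes in 3 of them (in replicate 4 the median was 2356.5 against 2467), and with each cell thinned to 100000 reads the number of genes differing by 0.5 or more was 441 in place of 430, while the thinned gene number still was 1884.5 to 2025.5 in aCap cells against 1353 to 1840 in the others.

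Igfbp7, a secreted binder of insulin-like growth factors, stood highest. Its level was 4.55, 4.61, 4.46 and 4.59 in the aCap cells of the 4 resting animals and 2.35, 2.16, 2.35 and 2.18 in the other capillary cells, a difference of 2.29 ± 0.165 (SD, n = 4), and every aCap cell had a read. The phosphatase gene Ptp4a3 was at 2.71, 2.85, 2.71 and 2.74 in aCap cells against 0.36, 0.55, 0.72 and 0.70. The homeodomain-only gene Hopx was at 3.12, 3.40, 3.42 and 2.99 against 0.91, 1.19, 1.69 and 1.49. The classes did not overlap in any animal for these genes. Next came the lipase gene Mgll (difference 1.84), the small heat-shock protein gene Hspb1 (1.83), Rprml (1.75), the tubulin-associated gene Tppp3 (1.73) and Tbx3 (1.73), a T-box factor from the same family as Tbx2 of the rule. Tbx3 was at 2.87, 2.65, 2.74 and 2.16 in aCap cells against 0.90, 0.68, 0.96 and 0.96. The cytochrome gene Cyp4b1 (1.66), Pmp22 (1.63), which belongs to the same tetraspan family as Emp2, the keratin gene Krt80 (1.61) and Sept4 (1.60) completed the 12 highest.

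The genes lowest in aCap cells included surface and matrix genes that the other capillary cells carry. Ifitm3, an interferon-inducible membrane protein gene, was at 1.84, 1.88, 2.20 and 2.35 in aCap cells against 3.90, 4.07, 4.18 and 3.94, a difference of -1.95 ± 0.258 (SD, n = 4). The MHC class II chain H2-Ab1 was at 0.21, 0.18, 0.45 and 0.46 against 2.04, 1.86, 2.00 and 2.00, and the invariant chain Cd74 at 0.26, 0.19, 0.28 and 0.21 against 1.87, 1.70, 1.56 and 1.68. All 4 MHC class II genes that passed the detection minimum were lower in all 4 animals, with H2-Eb1 at -0.95 and H2-Aa at -0.94. The chemokine gene Cxcl12 was at 0.31, 0.18, 0.19 and 0.52 against 1.78, 1.96, 1.83 and 1.96. Kit, the stem cell factor receptor used as a gCap marker, was at 0.05, 0.08, 0.16 and 0.29 against 1.58, 1.58, 1.50 and 1.91. The matrix gene Hmcn1 (-1.76), the chemokine-scavenging receptor gene Gpr182 (-1.60), Tmsb10 (-1.57), the connexin gene Gja4, Ahnak (-1.26), the ceramidase gene Acer2 (-1.23) and the hyaluronidase gene Cemip2 (-1.23) were the other lowest. All 24 genes named here kept their sign in all 4 animals after thinning.

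**Figure D2:**
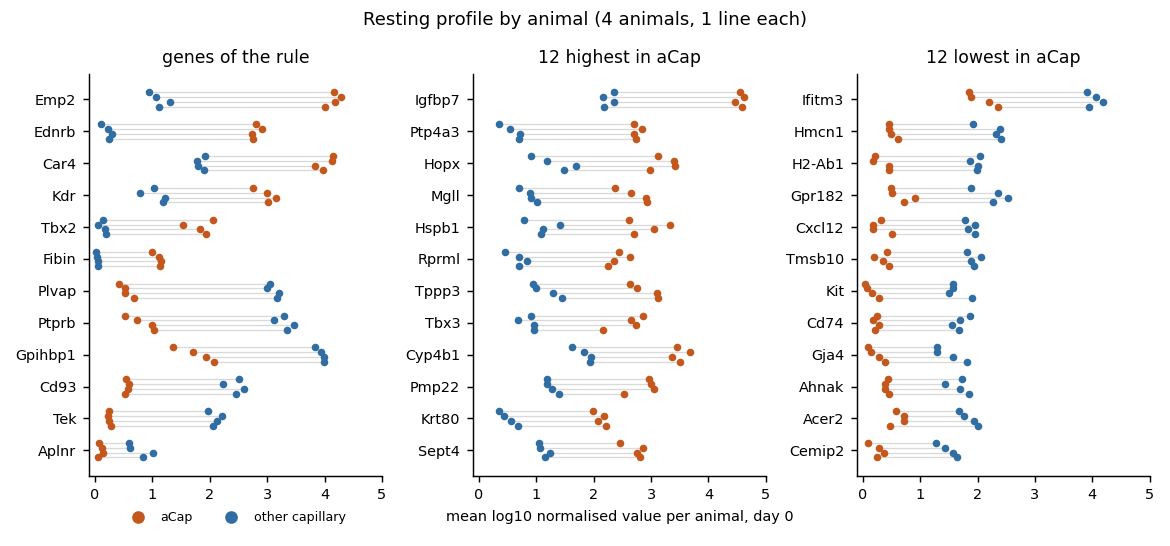
Mean log10 normalised value (x axis) in aCap (orange) and other capillary cells (blue) of the 4 day 0 animals, 1 line per animal, for the 12 genes of the rule and the 12 genes highest and 12 lowest in aCap cells outside the rule. The classes are apart in every animal for each gene drawn; for Igfbp7 aCap cells lie at 4.46 to 4.61 and the others at 2.16 to 2.35.

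The study's own markers outside the rule all lay on their side. Of its aCap list, 9 of 9 genes were higher in all 4 animals, led by alkaline phosphatase (Alpl, 1.52 ± 0.219), Enho (1.39), the homeobox gene Meox1 (1.21) and Prdm1 (1.12), with the ligand apelin (Apln) at 0.76. Of its gCap list, 8 of 8 were lower. Neither list is independent of the rule, since both were drawn for the same cells.

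Adhesion, junction and vesicle genes are given beside the 37.4% of all genes that were higher and the 13.6% that were lower in all 4 animals. Of 7 leukocyte adhesion genes measured, 5 were higher in all 4 animals (Cd34 by 1.32 ± 0.063, Icam2 by 0.94, Icam1 by 0.84, Podxl and Cdh5) and 1 lower. Of 10 junction genes, 6 were higher, including claudin 5 (Cldn5, 0.53), Esam (0.50) and F11r (0.49), and 2 lower, the connexin gene Gja4 and Jam2. Of 10 genes of caveolae and vesicle traffic, 5 were higher, with Cavin2 at 0.64 and Ehd4 at 0.56, and 2 lower, Ehd1 and Cavin1 (-0.28).

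VEGF, Notch, BMP and TGF-beta genes lay on both sides, and Wnt genes on the lower side, beside 37.4% of all genes higher and 13.6% lower. Of the 4 VEGF genes measured outside the rule, the co-receptor Nrp1 was higher by 1.37 ± 0.169 and Flt4 by 0.19, and the ligand Vegfa was lower (-0.47). Of 7 Notch pathway genes, Mfng, Hes1 (0.47) and Rbpj were higher and the receptors Notch4 (-0.75) and Notch1 (-0.21) and the target Hey1 (-0.73) lower. Of 10 BMP and TGF-beta genes, the receptor Acvrl1 (0.42), Id1 (0.41), Tgfbr3 and Smad6 were higher and Id2, Bmp6 (-0.39) and Eng (-0.11) lower. The Wnt receptor gene Fzd4 (-0.33), its co-receptor Lrp6 (-0.28) and Wnt4 (-0.14) were lower, 3 of 4 Wnt genes measured.

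Among 14 endothelial transcription factors, against the same 37.4 and 13.6% of all genes, 5 were higher (Tbx3, Meox1, Prdm1, Klf4 by 0.53 and Gata2 by 0.36) and 5 lower, among them Foxp1 (-1.16), Sox17 (-0.82) and Foxo1 (-0.32). The urokinase receptor gene Plaur (1.12) was higher and Vwf lower (-0.28). Of the basement membrane genes, Col4a2 was higher (0.61) and the collagen-binding protein gene Sparc lower (-1.16 ± 0.313), with Lama5 also lower (-0.42). Of 13 immediate-early and heat-shock genes, which tissue dissociation is known to induce, 8 were higher in aCap cells (37.4% of all genes), such as Ier2 (0.68) and Jun (0.37), and 0 lower in all 4 animals. Whether dissociation acted differently on the classes was not tested.

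The resting profile largely persisted. Of the 430 genes that differed by 0.5 or more at rest, 85.8% had the same sign in all 6 later animals, among them 65 of the 66 that were lower and all 24 genes named above. Igfbp7 stood 1.85 to 2.21 higher in aCap cells of the later animals and Hopx 1.37 to 2.12 higher. For Ifitm3 the difference ran from -1.38 to -0.757 there, a narrower gap than at rest. For Cd74 the gap ran from -1.52 to -0.0334. Cells of all days were chosen by the same rule, which keeps the profile similar by construction.

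Within aCap cells some genes of the rule lay lower on the later days and others higher. Car4 was at 4.14, 4.13, 3.83 and 3.96 on day 0, 3.87, 4.01 and 3.96 on day 1.5, and 3.54, 3.85 and 3.84 on day 3.5, and the days overlapped. Ednrb was at 2.81, 2.91, 2.74 and 2.76, then 2.84, 2.74 and 2.72, then 2.33, 2.62 and 2.70, so that the day 3.5 animals lay below all others. Emp2 was at 4.17, 4.29, 4.18 and 4.01, then 3.90, 3.62 and 3.95, then 4.03, 4.11 and 3.77. All 3 day 1.5 values of Emp2 lay below those of day 0. The mean of each of the 6 general-side genes in aCap cells was higher on both later days than on day 0. All 6 later animals lay above day 0 for Cd93, whereas for the other 5 genes at least 1 later animal lay within the day 0 range. The angiopoietin receptor gene Tek had means of 0.25 ± 0.02, 0.49 ± 0.09 and 0.45 ± 0.17 (SD, n = 4, 3 and 3), Cd93 of 0.56 ± 0.03, 0.95 ± 0.27 and 1.01 ± 0.23, and Plvap of 0.54 ± 0.10, 0.87 ± 0.15 and 0.71 ± 0.10. The rule used these genes, so they carry no test.

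Of the 9 aCap markers outside the rule, 0 were called on day 1.5, and none had day 1.5 animals all below day 0. Alpl was at 1.49, 1.61, 1.36 and 1.88 on day 0, 0.80, 1.09 and 1.39 on day 1.5, and 1.46, 1.88 and 1.45 on day 3.5. Its day 1.5 values reached into the range of day 0 in 1 animal. Enho was at 1.64, 1.74, 1.67 and 1.44, then 1.47, 1.15 and 1.20, then 1.40, 2.11 and 2.18. Apln was at 0.86, 0.91, 0.94 and 0.38, then 0.68, 0.43 and 0.71, then 0.92, 0.99 and 1.00. Of the 9 genes, edgeR gave 4 an unadjusted p under 0.05 for lower values on day 1.5, against 2.88% of all genes, with a median log2 change in counts of -1.03. On mean log10 values limma-trend gave 1 of 9, against 1.35% of all genes, and a median of -0.74 on the log2 scale. No gene of the list was called by either.

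**Figure D3:**
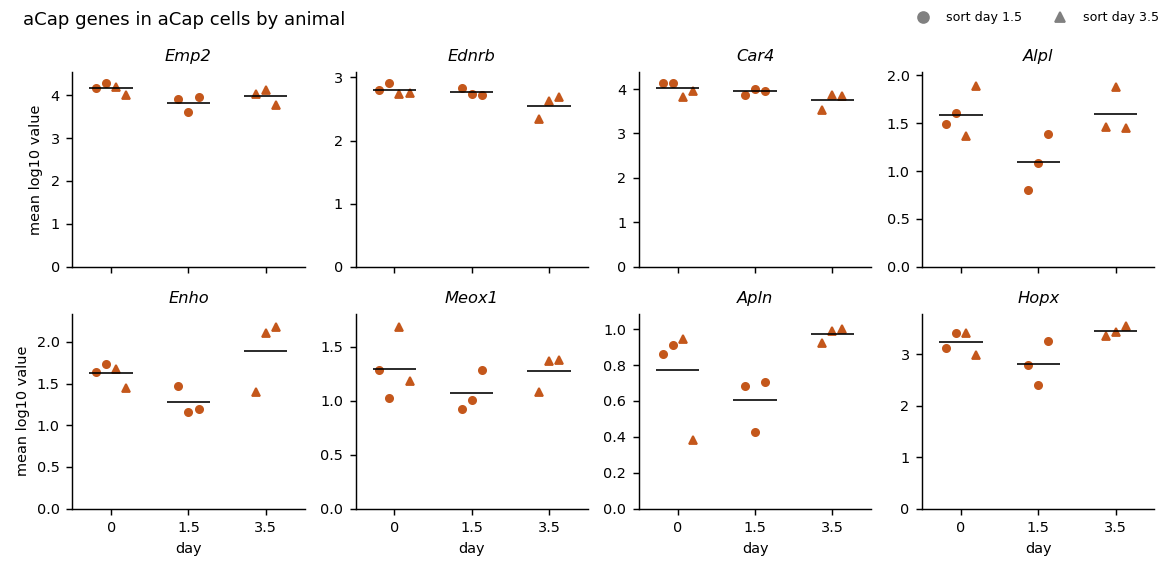
Mean log10 value in aCap cells (y axis) by day (x axis) for Emp2, Ednrb and Car4 of the rule and for Alpl, Enho, Meox1, Apln and Hopx, 1 point per animal, circles for sort day 1.5 and triangles for sort day 3.5, lines for day means. The days overlap for most genes; Alpl runs from 0.80 to 1.39 on day 1.5 and from 1.36 to 1.88 on day 0.

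Each later day was next compared with day 0, and the later days with each other, to ask which genes aCap cells changed after tumour cells arrived. Both comparisons with day 0 share the same 4 control animals. In the planned test, edgeR's quasi-likelihood test on estimated counts summed over the aCap cells of each animal, 0 of 13545 genes passed an adjusted p of 0.05 in any of the 3 comparisons. The unadjusted p was under 0.05 for 857 genes on day 1.5, 1052 on day 3.5 and 704 between the later days, and the smallest adjusted p was 0.595, 0.570 and 0.947. DESeq2 called 1.88, 2.9 and 1.22% of 12737 genes. For 63, 79 and 54 of those genes a single cell held over 50% of all aCap reads, and 57.9, 63 and 72.9% of them had reads in under 10% of aCap cells. The top cell held a median of 36.4, 32.3 and 38.4% of a called gene's aCap reads, against 19.2% for all genes tested.

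Mean log10 values weigh every cell equally, and limma-trend on them called 15 of 7773 genes (0.193%) on day 1.5, all higher, 62 (0.798%) on day 3.5, of which 61 were higher, and 5 (0.0643%) between the later days, all higher on day 3.5. On this scale the median over all genes was itself higher on the later days, by 0.19 and 0.21 log2, and by 0.02 between them. A single cell held over 50% of the gene's aCap reads for 2 of the 15 calls, 0 of the 62 and 0 of the 5. Without adjustment, 8.26, 12.1 and 3.59% of genes had a p under 0.05 for higher values and 1.35, 1.25 and 2.26% for lower values, where edgeR gave 3.45, 3.7 and 2.11% and 2.88, 4.07 and 3.09%. The animals of the compared days did not overlap, with the later day higher, for 8.44, 9.55 and 4.34% of genes and, with it lower, for 1.49, 1.48 and 4.53%. With every animal centred on its own median, 9 (0.116%), 16 (0.206%) and 1 (0.0129%) genes were called, 7, 12 and 1 of them higher. With sort day as a covariate the counts were 5, 20 and 0, with 5 and 16 higher. Of the DESeq2 calls 51.2, 41.1 and 32.3% were higher, so the nearly one-sided direction held for limma-trend without centring and not for DESeq2. In the following, a gene is said to have risen or fallen when limma-trend on mean log10 values called it, and its log2 difference is on that scale. It is larger than the log2 change of summed counts for genes that more cells came to express. These fits did not call the same genes. Of the 15 genes on day 1.5, Sparc, Col18a1, Ifitm3, Sbno2, Col4a1, Col4a2 and Bcl3 were also called in the centred fit, Sparc, Col18a1, Ifitm3, Col4a2 and Rnase4 with sort day, and Ahnak, Bcl3 and Col18a1 by DESeq2.

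Of 9 basement membrane genes tested, 3 rose on day 1.5 in limma-trend, against 0.193% of all genes, and edgeR called 0 of 10. Sparc, whose product binds collagen IV, was at 1.18, 1.21, 1.67 and 1.30 in aCap cells on day 0, 2.72, 2.53 and 3.10 on day 1.5, and 1.63, 2.56 and 2.45 on day 3.5. All day 1.5 animals lay above all day 0 animals, and day 3.5 replicate 1 lay within the day 0 range. Sparc rose by 4.79 ± 0.68 log2 on day 1.5 (SE, limma-trend adjusted p 1.51e-06, 7.18e-06 with sort day), and the share of aCap cells with a read went from 50 to 79.3% on day 0 to 87.5 to 98.9%. In summed counts the change was 2.18 ± 0.52 log2 with an edgeR adjusted p of 0.623. On day 3.5 Sparc rose by 2.90 log2 (adjusted p 0.0163), which did not pass with sort day (adjusted p 0.21).

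The collagen IV chains followed the same order. Col4a1 was at 2.16, 1.83, 1.60 and 1.94, then 2.64, 3.27 and 2.98, then 2.48, 2.96 and 2.79, and both later days lay above day 0 in every animal. It rose by 3.60 ± 0.66 log2 on day 1.5 (adjusted p 0.000431) and by 2.86 on day 3.5 (adjusted p 0.0156). With sort day as a covariate the adjusted p was 0.0736 on day 1.5 and 0.0264 on day 3.5. The call on day 3.5 was lost in the centred fit (adjusted p 0.0507) and without day 0 replicate 3 or day 3.5 replicate 2 or 3 (adjusted p up to 0.169). Col4a2 was at 1.85, 2.32, 2.23 and 2.39, then 2.60, 3.40 and 3.29, then 2.63, 3.08 and 3.04. Its day 0 animals again lay below all others, and it rose on day 1.5 by 2.98 ± 0.65 log2 (adjusted p 0.0133). The genes lie head to head on chromosome 8 in GRCm38, Col4a1 at 11198423 to 11312826 on the minus strand and Col4a2 at 11312805 to 11449287 on the plus strand, so they overlap by a few bases at their starts.

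Col18a1, whose collagen XVIII carries the endostatin fragment, was close to silent in resting aCap cells. It was at 0.13, 0.14, 0.08 and 0.12 on day 0, with reads in 4.54 to 7.14% of cells, and at 0.59, 1.17 and 1.09 on day 1.5, with reads in 24.3 to 43.8%. On day 3.5 it was at 0.13, 0.83 and 0.64. Col18a1 rose on day 1.5 by 2.77 ± 0.41 log2 (adjusted p 2.48e-05) and was called by DESeq2, in the centred fit and with sort day as well. Of the 9 basement membrane genes of the list, Sparc, Col4a1 and Col4a2 were called on day 1.5, and 6 had an unadjusted p under 0.05 for higher values, against 8.26% of all genes, and 5 did not overlap between the days, against 8.44%. On day 3.5, 3 rose (Sparc, Col4a1 and Sparcl1, against 0.798% of all genes called), none of them in the centred fit, and 7 had an unadjusted p under 0.05, against 12.1%.

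Ifitm3, Sbno2 and Bcl3 rose on both days. Ifitm3, at 1.84, 1.88, 2.20 and 2.35 on day 0, was at 3.35, 3.30 and 3.06 on day 1.5 and at 3.31, 3.03 and 3.60 on day 3.5, and no later animal overlapped with day 0. It rose by 3.88 ± 0.64 log2 on day 1.5 (limma-trend adjusted p 4.51e-05) and by 4.13 ± 0.64 on day 3.5 (adjusted p 1.07e-05, 0.00811 with sort day). In summed counts its changes were 1.37 ± 0.33 and 1.91 ± 0.33 log2, with an edgeR adjusted p of 0.570 on day 3.5. Sbno2, a co-regulator induced downstream of STAT3, was at 0.87, 0.66, 0.70 and 0.19, then 1.56, 1.47 and 1.75, then 1.47, 1.64 and 1.37. It too was higher in all later animals, and rose by 3.29 ± 0.57 log2 (adjusted p 0.000131, 0.0787 with sort day) and 2.95 log2 (adjusted p 0.00102, 0.0029 with sort day). Bcl3, an atypical regulator of NF-kappaB, was at 0.21, 0.17, 0.10 and 0.04, then 0.64, 0.45 and 0.68, then 0.53, 0.55 and 0.47. Bcl3 rose by 1.53 log2 on day 1.5 (adjusted p 0.00577, 0.284 with sort day) and by 1.29 on day 3.5 (adjusted p 0.0254, 0.0542 with sort day and 0.110 in the centred fit).

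Of the list of interferon response genes 1 was called. Ifitm3, which rose on both days, is not on that list. On day 1.5, 0 of 22 tested were called by limma-trend and 0 of 31 by edgeR, while 7 had an unadjusted p under 0.05 for higher values in limma-trend (8.26% of all genes) and 4 in edgeR (3.45%). On day 3.5, Xaf1 rose by 2.27 log2 (adjusted p 0.0295) and 9 of 22 had an unadjusted p under 0.05 (12.1%). The median log2 difference of the list was 0.46 and 0.55, against 0.19 and 0.21 for all genes. Xaf1 is a pro-apoptotic gene induced by interferon.

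The remaining calls on day 1.5 were Rnase4 (1.61 log2, adjusted p 0.0115), Plekho1 (1.65, adjusted p 0.0223), Itgb1, the shared beta chain of collagen and laminin receptors (2.73, adjusted p 0.0397), Ahnak, Tmem252, Sema3c, Cxcl12 and Adamts1. Itgb1 was at 2.14, 2.06, 1.82 and 1.94 on day 0, 2.76, 2.74 and 2.93 on day 1.5, and 2.57, 2.99 and 2.29 on day 3.5, without overlap with day 0. All 15 genes called on day 1.5 had the same direction in edgeR, 10 with an unadjusted p under 0.05 (3.45% of all genes, higher). Of the 15, 14 did not overlap between the days (8.44% of all genes, higher). They were chosen for a difference in these same cells, so these counts are no separate support. When each of the 10 animals was left out in turn, Sparc, Col18a1, Ifitm3, Sbno2 and Col4a1 were called every time, with an adjusted p of at most 0.000638, 0.00908, 0.00219, 0.0146 and 0.0445. The other 10 were lost in at least 1 of those fits, Col4a2 among them without day 0 replicate 1 or day 1.5 replicate 2 or 3.

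Sparc and Ifitm3 are genes that the other capillary cells carry at a higher level at rest, and the later aCap cells had lower D and higher mean levels of the general-side genes. Whether this shift took part in the rises was not tested, since a higher threshold uses the same score. With D above 1 in place of 0.75, Sparc rose by 4.59 ± 0.68 log2 on day 1.5 (adjusted p 1.10e-05) and Ifitm3 by 3.86 ± 0.63 (adjusted p 5.89e-05), and 10 of the 15 calls remained, all of the 5 above included. Among further calls in the alternatives to the uncentred fit were Ces2g and Gm8464, both lower on day 1.5 (centred). The fit with D above 1 added, among others, Cltb, higher on day 1.5. Between the later days it added Elmo1, higher, and Myl9, lower on day 3.5. Il4ra, Kat2b and Cttnbp2nl rose on day 3.5 and were also called with sort day, and Sema7a rose and was also called in the centred fit. With D above 1, 50 of 62 calls on day 3.5 and 5 of 5 between the later days remained.

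On day 3.5 the neighbouring serine protease inhibitor genes Serpina3f, Serpina3g and Serpina3i rose. Serpina3f was at 0.13, 0.44, 0.35 and 0.38 on day 0, 0.69, 0.57 and 0.86 on day 1.5, and 0.78, 1.34 and 1.32 on day 3.5, and the share of aCap cells with a read went from 8.93 to 25% to 37.5 to 70.7%. It rose by 2.74 ± 0.44 log2 on day 3.5 (adjusted p 2.5e-05). Serpina3g was at 0.15, 0.42, 0.40 and 0.30, then 0.72, 0.43 and 0.89, then 0.72, 1.36 and 1.34, and rose by 2.73 log2 (adjusted p 4.69e-05). Serpina3i rose by 2.84 log2 (adjusted p 0.000292). None of them overlapped between day 0 and day 3.5. They are neighbours on chromosome 12 (Serpina3f at 104214544 to 104221129, Serpina3g at 104236245 to 104241939 and Serpina3i at 104263122 to 104269372, plus strand) and near-copies of each other, so how the reads divide among them is uncertain.

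Gadd45g, Zbtb16 and Bcr also rose on day 3.5. Gadd45g, a stress-induced growth-arrest gene, was at 0.28, 0.41, 0.37 and 0.07 on day 0, 0.34, 0.63 and 0.58 on day 1.5, and 0.96, 1.11 and 1.15 on day 3.5. Every day 3.5 animal lay above all others, with reads in 41.5 to 42.9% of aCap cells against 2.27 to 20.7% on day 0. Gadd45g rose by 2.62 ± 0.40 log2 (adjusted p 1.07e-05, 0.000167 with sort day), and by 1.85 between the later days (adjusted p 0.0482). Zbtb16, the zinc-finger factor PLZF that glucocorticoids induce, was at 0.30, 0.42, 0.42 and 0.31, then 0.14, 0.11 and 0.15, then 0.64, 1.07 and 1.17. The 3 days formed separate ranges, lowest on day 1.5. Zbtb16 rose from day 0 to day 3.5 by 1.98 ± 0.36 log2 (adjusted p 0.000321, 0.00811 with sort day) and from day 1.5 to day 3.5 by 2.75 ± 0.38 (adjusted p 8.46e-07). The latter did not pass with sort day (adjusted p 0.108). Bcr was at 0.46, 0.39, 0.29 and 0.43, then 0.29, 0.39 and 0.68, then 0.82, 0.95 and 1.10, and rose by 1.90 log2 on day 3.5 (adjusted p 0.00473).

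Further genes that rose on day 3.5 were Tmem252 (1.99 log2, adjusted p 0.00632), the membrane-curving protein gene Fnbp1l (3.01, adjusted p 0.00632) and Sparcl1 (1.00, adjusted p 0.00964). The only gene that fell in this fit was Strap, which encodes an inhibitor of TGF-beta receptor signalling. The centred fit and that with sort day each called 4 genes lower on day 3.5, such as Asb8 (centred, adjusted p 0.0286) and, with sort day, Tmem199 (0.0172) and the globin gene Hba-a2 (0.00811). Strap was at 0.69, 0.49, 0.44 and 0.56 on day 0, 0.36, 0.25 and 0.30 on day 1.5, and 0.11, 0.14 and 0.25 on day 3.5, a fall by 1.26 on the log2 scale on day 3.5 (adjusted p 0.0254). The values of Strap on both later days lay below all of day 0. Strap and Tmem252 were called in the centred fit but not with sort day, and Sparcl1, Xaf1 and Sparc in neither. Of the 62 genes, 61 had the same direction in edgeR and 35 an unadjusted p under 0.05 there (3.7% of all genes higher, 4.07% lower). Between the days 57 did not overlap (9.55% of all genes higher, 1.48% lower). The 62 were chosen for a difference in these same cells, so these counts are no separate support. In the centred fit 13 remained, with sort day 16 and in DESeq2 11. Gadd45g, Ifitm3, Serpina3f, Serpina3g, Serpina3i, Zbtb16, Sbno2 and Bcr were called whichever of the 10 animals was left out, with a highest adjusted p of 0.043 for Sbno2. The number of calls was set by single animals, being 130 without day 3.5 replicate 1, 9 without day 3.5 replicate 2 and 16 without day 0 replicate 1. Day 3.5 replicates 2 and 3 had the highest gene numbers per aCap cell, and the part of this in the other calls was not tested.

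**Figure D4:**
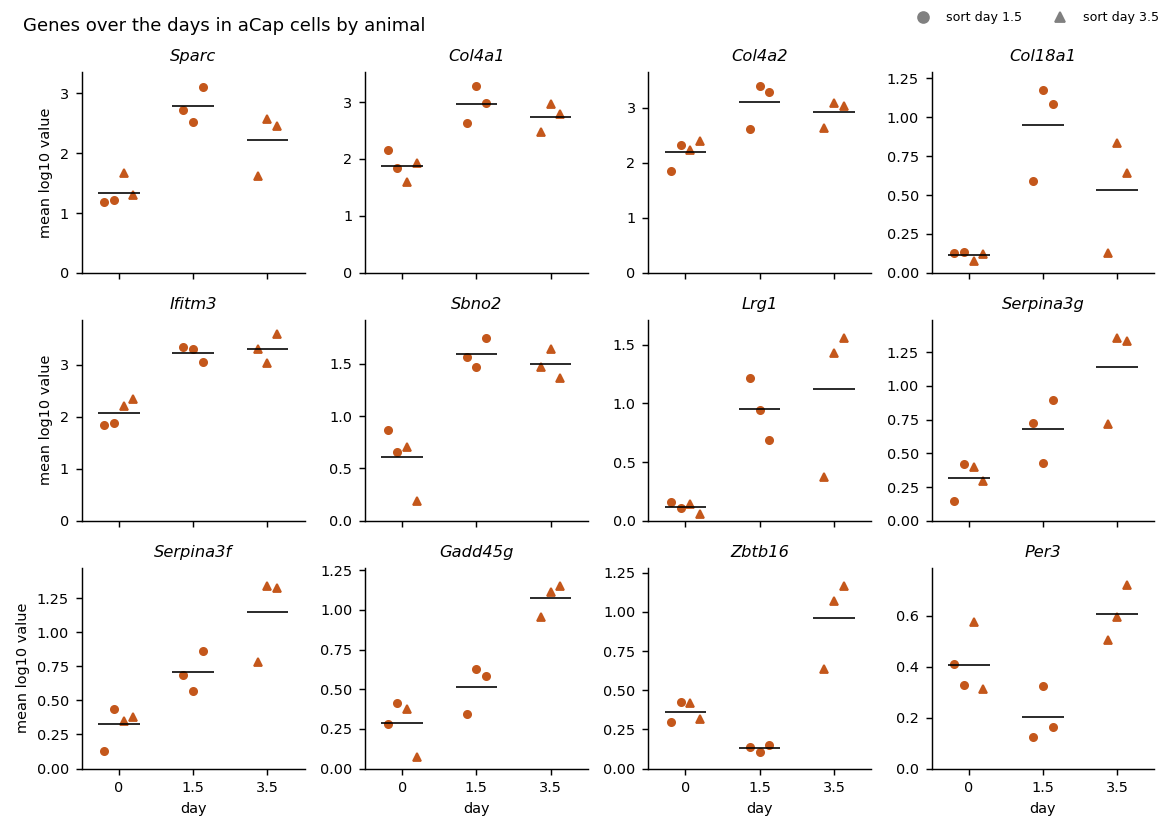
Mean log10 value in aCap cells (y axis) by day (x axis) for 12 genes, 1 point per animal, circles for sort day 1.5 and triangles for sort day 3.5, lines for day means. Sparc runs from 1.18 to 1.67 on day 0 and 2.53 to 3.10 on day 1.5, Ifitm3 lies above its day 0 range in all 6 later animals, and Zbtb16 is lowest on day 1.5 and highest on day 3.5.

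Between the later days limma-trend called 5 genes, all higher on day 3.5. Besides Zbtb16 and Gadd45g these included Gadd45b, at 0.30, 0.60 and 0.77 on day 1.5 and 0.96, 1.46 and 1.60 on day 3.5 (2.61 log2, adjusted p 0.0403), and the anti-apoptotic gene Bcl2l1, at 0.44, 0.27 and 0.55 and then 0.52, 1.63 and 1.44 (2.58 log2, adjusted p 0.0403). Of these 4 genes, only Bcl2l1 overlapped between the days. On day 0, Gadd45b was at 0.82, 0.85, 1.20 and 1.34 and Bcl2l1 at 0.76, 0.70, 0.74 and 0.87, so that for both the day 1.5 animals were the lower side of the comparison. With sort day as a covariate 0 of the 5 were called, and day and sort day cannot be told apart here beyond what the day 0 animals give. Zbtb16 alone was called without any 1 of the animals and in the centred fit.

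Of the clock genes, Nr1d1 and Dbp had day 0 animals that did not overlap between the sort days, whereas Per3 overlapped. This split of few animals was not tested, and no share over all genes was taken for it. Nr1d1, a repressor of the clock, was at 0.42, 0.09, 0.76 and 1.03 on day 0, 0.07, 0.02 and 0.04 on day 1.5, and 1.04, 1.05 and 0.56 on day 3.5. Dbp, a clock output factor, was at 0.31, 0.18, 0.53 and 0.96, then 0.09, 0.02 and 0.07, then 0.76, 0.76 and 0.21. For both, day 0 replicates 1 and 2, sorted with the day 1.5 animals, were lower than replicates 3 and 4, sorted with the day 3.5 animals. Per3 was at 0.41, 0.33, 0.57 and 0.31, then 0.12, 0.32 and 0.16, then 0.50, 0.60 and 0.72. No clock gene was called. Of 9 tested by limma-trend, 5 had an unadjusted p under 0.05 for lower values on day 1.5 (1.35% of all genes). Between the later days, 6 had one for higher values on day 3.5 (3.59%). Of 14 tested by edgeR, 1 was lower at that limit on day 1.5 (2.88%). Between the later days edgeR gave 1 higher (2.11%) and 1 lower (3.09%).

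Other lists gave few or no calls. The study's 9 biosynthesis genes, which include Vwf, Emp3 and S100a11 beside ribosomal gene copies such as Rps12l1, were chosen by the study on these samples and are no independent evidence of a direction. They had 0 calls by limma-trend and by edgeR on day 1.5, 7 with an unadjusted p under 0.05 for higher values in limma-trend but 1 in edgeR, and a median of 0.93 log2 on mean log10 values against 0.05 in summed counts. The 8 gCap genes outside the rule had a limma-trend median of 0.36 log2 on day 1.5, on a scale where the median of all genes was also higher. Of them, 2 had an unadjusted p under 0.05 for higher values in limma-trend (8.26% of all genes). In edgeR it was 3 of 8 (3.45%), with a median of 1.45 log2, and 0 were called by either. They were drawn for the same cells as the rule. Of the study's angiokine genes, secreted factors of ECs, edgeR tested 3 and called 0, while Cxcl10, Lrg1 and Angpt2 had an unadjusted p under 0.05 for higher values on day 1.5 (3.45% of all genes), and Lrg1 and Cxcl10 on day 3.5 (3.7%). Lrg1 alone had reads in enough cells for limma-trend, at 0.16, 0.11, 0.14 and 0.05 on day 0, 1.22, 0.95 and 0.69 on day 1.5, and 0.37, 1.43 and 1.55 on day 3.5. Lrg1, which modulates TGF-beta signalling in vessels, was higher than day 0 in all 6 later animals and was not called on day 3.5 (3.34 log2, adjusted p 0.0624). Of 18 immediate-early and heat-shock genes edgeR called 0 on day 1.5, and 5 (Fos, Ier3, Fosb, Zfp36 and Jun) had an unadjusted p under 0.05 for lower values (2.88% of all genes), against 0 of 14 in limma-trend. Notch, VEGF, MHC class II, caveolar and vasoactive genes had 0 calls in limma-trend and in edgeR in each comparison of days, with at most 2 genes per list and test at an unadjusted p under 0.05.

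Genes with the smallest edgeR p and reads in at least 10% of aCap cells were not called by edgeR, whereas limma-trend called Col4a1, Ifitm3, Serpina3g and Zbtb16 of them as given above. DESeq2 called all of them except Col4a1 and, between the later days, Ucp2. On day 1.5 they were Pdrg1, Oaz2, Dnajc15, Col4a1, Rab5if, Fos, Ranbp3 and Ucp2, and on day 3.5 Ifitm3, Serpina3g, Dnajc15, Tmem109, Nfyb, Gm4070, Col4a1 and Rapgef2. Between the later days they were Oaz2, Clptm1l, Gm49361, Fcf1, Zbtb16, Aff3, Ucp2 and Auts2. Oaz2, an inhibitor of polyamine synthesis, was at 1.37, 1.68, 1.72 and 1.76 on day 0, 0.83, 0.95 and 1.33 on day 1.5, and 1.72, 1.80 and 1.80 on day 3.5, without overlap of day 1.5 with either other day.

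Lastly, the change in aCap cells was compared with that in the other capillary cells of the same animals, with the difference tested as an interaction of class and day. edgeR called 0 of 16849 genes on either day (1266 and 1372 at an unadjusted p under 0.05, smallest adjusted p 0.220 and 0.261) and limma-trend on mean log10 values 0 of 7773, whereas DESeq2 called 2.12 and 3.14% of 16145. At an unadjusted p under 0.05 the change was more positive in aCap cells for 3.93 and 3.8% of genes and more negative for 3.58 and 4.34% in edgeR, and for 0.656 and 1.51% against 3.0 and 3.69% in limma-trend. With animal as a block, since both classes come from the same 10 animals, edgeR called 0 and 0 and limma-trend 0 and 1.

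That gene was Ifitm3. While aCap cells went from 1.84 to 2.35 on day 0 to 3.03 to 3.60 on day 3.5, the other capillary cells went from 3.90, 4.07, 4.18 and 3.94 to 4.64, 4.39 and 4.35, and stood at 4.65, 4.61 and 4.44 on day 1.5. The rise in aCap cells exceeded that in the others by 2.68 ± 0.50 log2 on day 3.5 (limma-trend with animal as a block, a fit added after seeing the data, adjusted p 0.00878) and by 2.08 ± 0.50 on day 1.5 (adjusted p 0.110). In summed counts the difference was 1.33 ± 0.40 log2 on day 3.5 (edgeR adjusted p 0.504). aCap cells stayed below the other capillary cells in every animal.

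Sparc and Col4a1 gave no call for a difference between the classes. For Sparc the other capillary cells went from 1.93, 2.56, 2.75 and 2.75 on day 0 to 3.40, 3.39 and 3.88 on day 1.5, and the change in aCap cells exceeded theirs by 1.26 ± 0.57 log2 (animal as a block, adjusted p 0.558). For Col4a1 the difference was -0.17 ± 0.59 log2 (adjusted p 0.979). The next smallest adjusted p on day 3.5 were those of Gadd45g (1.76 ± 0.41 log2) and S100a10 (-2.58), both 0.0979. Gadd45g was at 0.47, 0.53 and 0.30 in the other capillary cells on day 3.5, below all aCap values of that day.

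Clu, which encodes the chaperone clusterin, had the smallest edgeR p on day 1.5, with a difference in summed counts of -4.88 ± 0.82 log2 (adjusted p 0.220). It was at 1.60, 2.09, 1.12 and 1.71 in aCap cells on day 0 and 1.96, 1.56 and 2.00 on day 1.5, against 0.12, 0.19, 0.13 and 0.14 and then 0.65, 0.49 and 0.42 in the others. In CPM, Clu ran from 264.8 to 1032 in aCap cells on day 0 and from 480.3 to 701.7 on day 1.5, against 1.07 to 4.28 and then 47.01 to 86.09 in the others, so the ranges overlapped between the days in aCap cells and not in the others. DESeq2 called this difference (adjusted p 4.43e-06). On mean log10 values the difference was -0.55 log2 on day 1.5 and 0.55 on day 3.5, where edgeR gave -3.74, so its sign on day 3.5 depended on the scale.

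**Figure D5:**
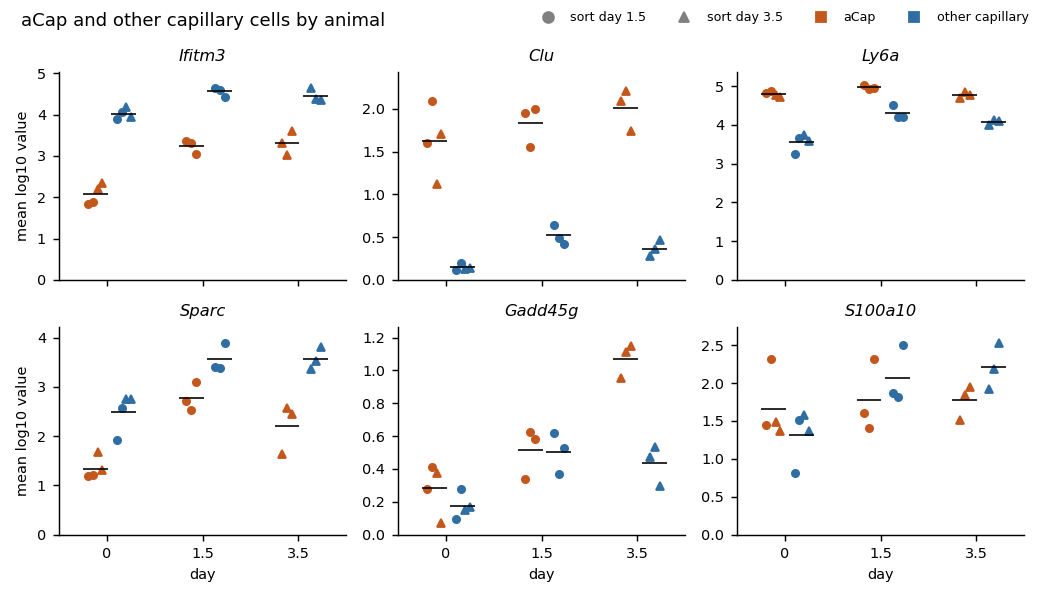
Mean log10 value (y axis) by day (x axis) in aCap cells (orange) and other capillary cells (blue) of each animal for 6 genes, circles for sort day 1.5, triangles for sort day 3.5, lines for day means. aCap cells stay below the other cells for Ifitm3 while the gap narrows after day 0, and for Gadd45g they lie above them on day 3.5, at 0.96 to 1.15 against 0.30 to 0.53.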

How the data were processed

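Single ECs were sequenced with modified SMART-Seq2. The authors deposited estimated counts per gene and cell and, for cells past their filters, log10 values of counts scaled to detected housekeeping genes. Salmon 0.7.2 and GRCm38 are taken from the submitters' processing notes. The methods describe that pipeline for another assay of the study, and for the single-cell data they refer back to earlier processing without naming it. All 2293 cells of the deposited log10 table were matched to their estimated counts, and the scaling was recovered as 9999.99 to 10000.01 with the 8 of 11 housekeeping genes found. Tables of tumour cells and the normalised table of all ECs were not used here.

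D used the log10 values. Estimated counts were summed over the aCap cells of each animal, rounded, scaled by TMM and tested by edgeR 4.0.16 quasi-likelihood (R 4.3.3) over all genes passing filterByExpr, with 3 days in 1 fit and Benjamini-Hochberg adjustment. limma-trend 3.58.1 (robust, on mean log10 values of genes with reads in at least 10% of aCap cells, in log2) and DESeq2 1.42.0 were alternatives. limma's prior had 101 degrees of freedom against 7 residual ones, so its standard errors lean on the spread shared by all genes. Genes of the rule were not tested. Of the genes called between the later days, 1 is not reported here. Scripts were checked on simulated data. Reads are not independent molecules, so limits cover counting error only.

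Members, gene lists and tests were chosen with earlier results of these data known, and fits with sort day, and in limma-trend those with animal as a block, with D above 1 and with 1 animal left out, were added after seeing the data. Named were the 12 rule genes, list members with the smallest p or largest difference, the 12 highest and 12 lowest at rest, the 8 smallest edgeR p where none was called, and up to 10 genes each alternative called. DESeq2 calls, between days and between classes, depart from this rule and are given mainly as counts. Genes lost when an animal was left out are named beyond that rule. Replicates are separate animals. Replicate numbers on days 1.5 and 3.5 are names: same-numbered aCap libraries correlated at -0.11 to 0.164 in their deviations from the day means, 1 of 9 pairs above 0.1, so numbers do not pair the days. The classes of 1 animal are paired by design.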

Additional observations from a re-analysis of the deposited data

Results flagged for a closer look

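In the day 0 group of 4 animals, 10 of 110 values (9.09%) had 1 animal far from the other 3, by a gap over the range above 0.829, where chance gives about 5%. Day 0 replicate 4 lay low for Apln (ratio 0.857; 0.38 against 0.86 to 0.94) and for Pmp22 (0.831; 2.54 against 2.96 to 3.05), and high for Tek (0.884; 0.29 against 0.24 in the others). Replicate 1 lay low for Rab5if (0.856), replicate 3 low for Ces2g (0.852) and high for Uaca (0.859), and replicate 2 high for Dynlt3 (0.85).

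Of the marker sums in aCap cells, that of alveolar epithelium was low in replicate 1 (ratio 0.922; 1530 CPM against 2080 to 2130), that of immune cells high in replicate 3 (0.923; 130 CPM, nearly all Lyz2), and that of erythroid cells and platelets high in replicate 4 (0.95; 9450 CPM, led by the globin genes Hba-a2 and Hbb-bs).

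A difference in change between aCap and other capillary cells passed the threshold under some alternatives and not in the planned fit. Beside the DESeq2 calls (2.12 and 3.14% of genes), on day 1.5 this held for Clu among genes with reads in at least 10% of aCap cells (edgeR adjusted p 0.02) and with D above 1 (0.0275), and with cells chosen by the second score for Epb41 and Cxcl12 (0.0376 each) and for Adamts1 and Sparcl1 (0.0392 each). On day 3.5 it held for Pdgfa without day 0 replicate 1 (0.0222), for Itpr3 without day 1.5 replicate 1 (0.0206) and for Ifitm3 in limma-trend with animal as a block (0.00878).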

How the results depend on the processing

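Of all alternatives for the counts and shares, 68% left the result on the same side or within the same range. Many of these were edgeR refits that again called 0 genes, and limma-trend fits were set against the 0 of edgeR. The share thus depends on how many fits of each kind were run. For the comparisons of days (day 1.5 with day 0, day 3.5 with day 0, day 3.5 with day 1.5), where edgeR called 0 genes, DESeq2 called 1.88, 2.9 and 1.22% of the genes tested, limma-trend 0.193, 0.798 and 0.0643%, limma-trend centred per animal 0.116, 0.206 and 0.0129%, limma-trend with D above 1 0.142, 0.72 and 0.0901%, and limma-trend with sort day 0.0643 and 0.257% for the first 2 and 0 for the last. With 1 animal left out the share ran from 0 (edgeR) to 0.244, 1.67 and 0.322% (limma-trend), all 3 maxima without day 3.5 replicate 1. For the difference between classes DESeq2 called 2.12 and 3.14% of genes on days 1.5 and 3.5. On day 1.5, 0.0129% (1 gene) was called with the 10% minimum, 0.00594% (1 gene) with D above 1 and 0.0238% (4 genes) with cells chosen by the second score. On day 3.5, 0.0129% (1 gene) was called by limma-trend with animal as a block, and 0 to 0.006% (at most 1 gene) with 1 animal left out. The causes were not tested. With the replicate number as a replicate block edgeR called 0 genes in each comparison of days (627, 733 and 558 at an unadjusted p under 0.05). The aCap share was 28.4% on day 0 with D above 0.5, 25.8% on day 1.5 with D above 1, and 24.6 and 22.4% on days 0 and 1.5 with the second score. The resting count of 430 ran from 392 (D above 0.5) to 471 (second score), and from 421 to 492 with 1 animal left out. With 35 to 88 aCap cells per animal, changes in genes found in few cells rest on few wells.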
